A study of Mus musculus with 8 samples.

Results

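The subunits of oxidative phosphorylation were described across 8 RNA-seq libraries of the mouse cochlea. Members were the protein-coding rows of the deposited gene table whose name follows the nomenclature of a subunit of complex I (Nduf genes and mt-Nd genes), complex II (Sdha to Sdhd), complex III (Uqcr genes, Cyc1 and mt-Cytb), complex IV (Cox4 to Cox8 genes and mt-Co genes) or complex V, the ATP synthase (Atp5 genes and mt-Atp genes). The rule found 103 of 78317 genes: 90 encoded in the nucleus and 13 in the mitochondrion. These carry 102 names, because Atp5po is listed under 2 identifiers. Ndufa4 and Ndufa4l2 were counted with complex IV. Ndufab1, an accessory subunit of complex I, falls outside the name rule and was not a member. Another 18 rows with matching names have other biotypes and were left out.

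The tissue, taken at postnatal day 6, was the basilar membrane, on which hair cells and supporting cells of the cochlea sit. The titles give 4 hete and 4 homo libraries. The genotype tag calls the hete libraries WT and the homo libraries Dnajc17 cKO, a conditional knockout, so the labels do not say whether the controls carry a mutant allele. What drives the deletion, and which exons it removes, is not given in the sources used here. Since nothing in the labels ties a library to an animal of its own, the p-values rest on library-to-library spread, which may be technical.

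Oxidative phosphorylation makes ATP at the inner mitochondrial membrane. Complexes I and II pass electrons from NADH and succinate to coenzyme Q, complex III passes them on to cytochrome c, and complex IV hands them to oxygen. Complexes I, III and IV pump protons across the membrane, and complex V uses the gradient to make ATP. Apart from complex II, each is built from subunits of both genomes: the mitochondrial genes give core membrane subunits, while the nuclear genes give the remaining core and all accessory ones. Hair cells and the tissue that supplies them use much energy, and mitochondrial mutations are a known source of hearing loss.

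Values are TPM (transcript abundance scaled by transcript length and to a fixed total of 1000000 per library), so sequencing depth is unknown. The 8 libraries list 28159 to 28969 genes above 0, and any pair correlated at 0.960 to 0.969 over the 17811 genes tested. Hair cell markers were present in all libraries, with a summed level of 406 to 582 TPM in hete and 310 to 471 TPM in homo over 10 markers. Dnajc17 itself (chromosome 2) had 26.5, 25.5, 25.1 and 22.1 TPM across hete replicates 1 to 4, against 29.3, 27.7, 31.1 and 18.04 TPM across homo replicates 1 to 4. This gene-level value of a mixed tissue does not check the labels.

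Promoter sequences are shown first for 3 nuclear members whose genes the results below return to. Capitals mark letters that match motifs of 4 factors known from promoters of respiratory genes: NRF1 (CGCATGCG, its own reverse complement), the ETS family, which includes GABP (CCGGAAG, or CTTCCGG on the opposite strand), YY1 (AAGATGGCG or CGCCATCTT) and SP1 (GGGCGGG or CCCGCCC). Windows run 5′ to 3′ along the gene, from 250 bases before to 50 bases after the start, in the RefSeq annotation of GRCm38.p6. Cox6a1 lies at chr5:115348909-115349208, Atp5me at chr5:108434350-108434649 and Sdhd at chr9:50603800-50604099, all on the minus strand.
Cox6a1: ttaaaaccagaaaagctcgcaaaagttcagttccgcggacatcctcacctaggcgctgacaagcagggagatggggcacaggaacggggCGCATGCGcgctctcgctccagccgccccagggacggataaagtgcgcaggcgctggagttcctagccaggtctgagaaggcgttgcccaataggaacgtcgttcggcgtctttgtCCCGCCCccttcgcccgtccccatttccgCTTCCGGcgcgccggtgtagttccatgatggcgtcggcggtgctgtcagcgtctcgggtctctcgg
Atp5me: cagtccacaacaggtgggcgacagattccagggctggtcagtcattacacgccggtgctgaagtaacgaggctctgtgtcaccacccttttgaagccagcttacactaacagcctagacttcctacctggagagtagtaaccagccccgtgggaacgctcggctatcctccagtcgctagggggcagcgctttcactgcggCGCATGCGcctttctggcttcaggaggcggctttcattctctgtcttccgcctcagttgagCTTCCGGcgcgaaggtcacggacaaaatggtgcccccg
Sdhd: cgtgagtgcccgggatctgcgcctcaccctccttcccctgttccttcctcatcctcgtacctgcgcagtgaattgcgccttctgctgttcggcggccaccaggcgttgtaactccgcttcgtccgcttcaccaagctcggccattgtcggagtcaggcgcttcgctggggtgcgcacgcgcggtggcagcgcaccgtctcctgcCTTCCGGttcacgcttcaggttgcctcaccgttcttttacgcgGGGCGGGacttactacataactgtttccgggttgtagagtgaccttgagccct

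Among nuclear members above the level filter, 68 of 85 matched a RefSeq promoter, with 73 windows in all. The NRF1 letters were in 9 of the 73 windows (12.3%), against 1.87% of all 32851 promoter windows of that length. The ETS letters were in 17 (23.3%, against 8.86%), the YY1 letters in 7 (9.59%, against 1.40%) and the SP1 letters in 25 (34.2%, against 25.6%). No member window held overlapping motifs. A match describes letters and does not show binding.

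Of the 103 members, 98 averaged 1 TPM or more across the libraries and were tested: 85 of 90 nuclear and 13 of 13 mitochondrial. Complex I kept 36 of 37 nuclear members, complex IV 18 of 21 and complex V 18 of 19, while all 4 of complex II and all 9 of complex III passed. The 5 members below the filter were Ndufb11b, Cox7b2, Cox8c and the second Atp5po entry, all listed at 0 in every library, and Cox6a2, listed at 0.44 and 0.42 TPM in homo replicates 1 and 2 and at 0 in the others.

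Together the members made up a sizeable part of the library. Nuclear members summed to 2.65% ± 0.14 of all TPM in hete and 2.44% ± 0.21 in homo (n = 4 each, SD). Mitochondrial members summed to 9.59% ± 0.50 in hete and 9.28% ± 0.60 in homo (n = 4 each, SD). Both sums overlapped between the groups.

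Comparing homo with hete asks whether deletion of Dnajc17, a J-domain protein that the study's title ties to RNA splicing, goes with other levels of these transcripts. None of the 98 members changed (limma-trend with Benjamini-Hochberg adjustment over all genes, threshold 0.05), where 2 of all 17811 genes did (0.0112%). The smallest adjusted p among members was 0.735. Nuclear members were nevertheless mostly a little lower in homo: 77 of 85 had a log2 fold change below 0, against 43.7% of all genes tested. Their median was -0.11 on the log2(TPM + 1) scale, beside 0.02 over all genes. Mitochondrial members were split, with 6 of 13 below 0 and a median of 0.03. In a bulk sample, fewer cells of a type and less RNA per cell cannot be told apart.

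Markers of some other cell types leaned to one side, although none changed at the threshold used above. Supporting cell markers summed to 5453 to 6109 TPM in hete and 6378 to 6840 TPM in homo without overlap, with 7 of 9 markers higher in homo. Most of that sum was Tectb, at 4078 TPM in hete and 4726 TPM in homo on average (limma-trend adjusted p = 0.686). Log2 fold changes ran from -0.02 for Gjb6 to 0.56 for Tecta, with Sox2 at 0.05 and Gjb2 at 0.03. Spiral ganglion neuron markers summed to 303 to 435 TPM in hete and 348 to 547 TPM in homo, and Schwann and satellite glia markers to 602 to 1066 TPM in hete and 598 to 1248 TPM in homo. Of these, 7 of 7 and 6 of 6 had a log2 fold change above 0, although the sums overlapped. Other lists leaned lower in homo, with 6 of 9 hair cell and 5 of 5 erythroid markers above the filter below 0. Of the hair cell markers, Ocm differed most, at 177 TPM in hete and 90.2 TPM in homo on average, while Myo7a, Pvalb and Calb2 were above 0. Macrophage markers were below 0 in 4 of 6, as were those of stria vascularis and melanocytes. Above 0 were 5 of 6 otic mesenchyme and fibrocyte markers and 7 of 10 pericyte and mural markers. The part of any cell type in the lower nuclear median was not tested.

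Differences of this size were small for single genes. The log2 fold change was within 0.3 of 0 for 81 of 85 nuclear members, and the 95% interval stayed inside a 1.5-fold difference for 77 nuclear and 12 mitochondrial members. At an unadjusted p under 0.05, 9 members were lower (2.49% of all genes were) and 1 was higher (3.56% of all genes were). The 9 were Ndufb1, Ndufa1, Ndufb9, Ndufb11 and Ndufs6 of complex I, Sdhd of complex II, Cox7c of complex IV, and Atp5pf and Atp5me of complex V; the 1 higher was Ndufa4l2. Groups did not overlap, with homo lower, for 2 members, Ndufb9 and Sdhd (1.41% of all genes), and for 0 members with homo higher (2.58%).

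That count of 10 turned on single libraries. It was 0 without hete replicate 1, 3 without hete replicate 2, 6 without hete replicate 4, 1 without homo replicate 1, 6 without homo replicate 2, 2 without homo replicate 3 and 27 without homo replicate 4. The nuclear median was -0.07 without homo replicate 1 and -0.17 without homo replicate 4.

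**Figure D1:**
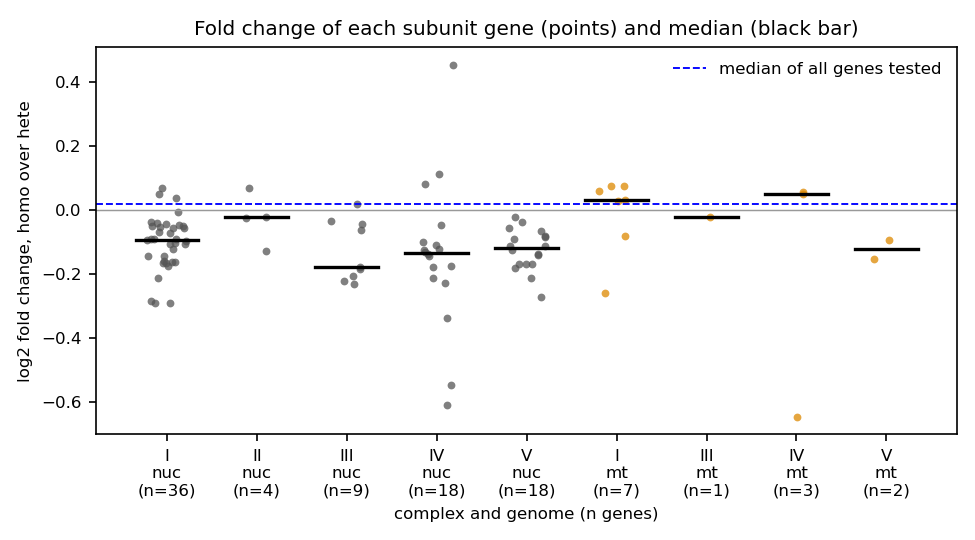
Log2 fold change of homo over hete (y axis, log2(TPM + 1) scale) for each tested subunit gene, as points grouped by complex and genome (x axis), with the median of each group as a black bar and the median of all genes tested as a dashed line. Nuclear points of complexes I, III, IV and V lie mostly below 0, and complex V has all 18 below 0, while mitochondrial medians lie between -0.12 and 0.05.

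Complex I takes electrons from NADH, and its nuclear members had a median log2 fold change of -0.09, with 33 of 36 below 0. Ndufa1, an accessory subunit of the membrane arm and the highest nuclear member of the complex, had 499.9, 430.1, 456 and 459.9 TPM across hete replicates 1 to 4, against 309, 403, 363 and 453 TPM across homo replicates 1 to 4. Homo replicates 1 to 3 lay below all hete libraries, and homo replicate 4 lay within their range. Its log2 fold change was -0.28 with an SE of 0.11 (limma-trend adjusted p = 0.760).

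Ndufb1, another accessory subunit of the membrane arm and the member with the smallest p, had 72.1, 61.5, 64.8 and 57.1 TPM in hete and 45.1, 56.5, 47.6 and 59.6 TPM in homo, replicates 1 to 4. Only homo replicate 4 reached the hete range (limma-trend adjusted p = 0.735, log2 fold change -0.29, SE 0.10). Ndufb9, also of the membrane arm, had 263, 249, 251 and 259.6 TPM in hete and 210.3, 243, 214 and 247 TPM in homo. All 4 homo values were below all 4 hete values, but the closest pair, 247 and 249 TPM, was nearly level (limma-trend adjusted p = 0.794, log2 fold change -0.16, SE 0.07).

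Ndufs1, a core subunit of complex I that carries iron-sulphur clusters, had 80.9 to 91.1 TPM in hete and 79.7 to 85.1 TPM in homo. Among the nuclear members of the complex with a log2 fold change above 0 were the accessory subunits Ndufb5 (0.04) and Ndufa10 (0.07), and both overlapped between groups.

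The 7 mitochondrial members of complex I encode its proton-pumping membrane core and had mean levels of 2629 TPM (mt-Nd5) to 6798 TPM (mt-Nd1). mt-Nd1 had 6982, 6768, 6258 and 6878 TPM in hete, and 7078, 6590, 6327 and 7501 TPM in homo. mt-Nd2 had 3258, 3077, 3031 and 3161 TPM in hete, and 3471, 3098, 2868 and 3666 TPM in homo. Both genes had their highest value in homo replicate 4, and the groups overlapped.

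mt-Nd4 had 4758, 4435, 4535 and 4925 TPM in hete, and 5341, 4348, 4302 and 5082 TPM in homo. mt-Nd5, the longest mitochondrial member at 1824 nt, had 2526, 2461, 2489 and 2754 TPM in hete, and 3043, 2402, 2578 and 2780 TPM in homo. For these long transcripts homo replicate 1 was the highest of the 8 libraries. mt-Nd6, the only protein-coding gene of the light strand, had 3248, 3131, 3032 and 2840 TPM in hete, and 3138, 3042, 3048 and 3695 TPM in homo.

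mt-Nd4l and mt-Nd3, shorter than the other mitochondrial genes of complex I, went the other way in homo replicate 1. mt-Nd4l, of 297 nt, had 3940, 3313, 3869 and 3860 TPM in hete, and 2789, 4108, 3176 and 4278 TPM in homo. mt-Nd3, of 348 nt, had 6684, 5368, 6141 and 6738 TPM in hete, and 4170, 5360, 4830 and 6707 TPM in homo. Both were lowest in homo replicate 1. Not every short mitochondrial gene was low there. mt-Nd6, of 519 nt, had 3138 TPM in homo replicate 1, within the hete range. mt-Atp8, of 204 nt, had 39072 TPM there and less, 36677 TPM, in homo replicate 3. mt-Nd3 had the second most negative log2 fold change of the 13 mitochondrial members, -0.26 with an SE of 0.14 (limma-trend adjusted p = 0.870). mt-Nd4l overlaps mt-Nd4 on one transcript, as mt-Atp8 overlaps mt-Atp6, so how reads were split within each pair is uncertain.

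Complex II, succinate dehydrogenase, is also an enzyme of the tricarboxylic acid cycle and has no mitochondrial gene. Its 4 genes lay close together, at mean levels of 146 TPM (Sdhb, the iron-sulphur subunit) to 165 TPM (Sdhc, a membrane anchor). Sdhd, the other membrane anchor, had 170.2, 176.8, 163 and 179 TPM across hete replicates 1 to 4, against 157, 161, 153 and 158 TPM across homo replicates 1 to 4. All homo values were below all hete values, by at least the small gap between 161 and 163 TPM (limma-trend adjusted p = 0.795, log2 fold change -0.13, SE 0.05).

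The remaining genes of complex II overlapped between groups. Sdhc had 153, 165, 159.9 and 167 TPM in hete, and 181, 149.8, 175 and 171 TPM in homo. Sdha, the flavoprotein that oxidises succinate, had 161, 149, 151 and 177 TPM in hete, and 154, 160.1, 154 and 159.9 TPM in homo. Sdhb had 151, 144, 147 and 147 TPM in hete, and 148, 139.8, 135 and 156 TPM in homo. Summed over the complex, the level was 640 ± 21.5 TPM in hete and 628 ± 17.1 TPM in homo (n = 4 each, SD), the narrowest relative spread of the 5 nuclear sums.

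Complex III had the lowest nuclear median of the 5 complexes, -0.18, with 8 of 9 nuclear members below 0 and none at an unadjusted p under 0.05. Uqcrh, the hinge protein that binds cytochrome c1, was its highest member, with 810.4, 675, 642 and 653 TPM in hete and 516, 657, 594 and 685 TPM in homo. Hete replicate 1 stood above the rest and homo replicate 1 below. Cyc1, cytochrome c1 itself and the lowest member, had 109.7, 117, 118 and 116 TPM in hete, and 97.8, 116, 111 and 116 TPM in homo.

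Small subunits of complex III gave the 3 smallest p-values within it. Uqcrq had 285, 249.5, 259 and 252 TPM in hete, and 207, 219, 195 and 283 TPM in homo (log2 fold change -0.22, SE 0.11). Uqcrb had 545, 443, 486 and 467 TPM in hete, and 391, 455, 397 and 473 TPM in homo (log2 fold change -0.18, SE 0.09). Uqcr11 had 635, 528, 550.2 and 548 TPM in hete, and 389.9, 527, 443 and 582 TPM in homo (log2 fold change -0.23, SE 0.12). In all 3, homo replicate 4 lay in the hete range, as did homo replicate 2 for Uqcrb, and the limma-trend adjusted p was 0.861 or more.

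The catalytic and core subunits of the complex did not share that difference in size. Uqcrc1 and Uqcrc2, the core proteins, had log2 fold changes of 0.02 and -0.04, and Uqcrfs1, the Rieske iron-sulphur protein, of -0.03. mt-Cytb, cytochrome b and the only mitochondrial member, had 7504, 7322, 7157 and 8021 TPM in hete, and 8605, 6774, 6831 and 7463 TPM in homo. Homo replicate 1 held the highest mt-Cytb value, although it held the lowest summed nuclear level of the complex, 2445 TPM.

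Complex IV, cytochrome c oxidase, had a nuclear median of -0.13, with 15 of 18 members below 0. Cox6c, a small structural subunit and its highest nuclear member, had 1041, 866, 849.7 and 927 TPM in hete, and 657, 862, 749 and 929.9 TPM in homo. Cox7c, another small subunit, had 781, 734, 758 and 703 TPM in hete, and 536, 660.3, 619.7 and 742 TPM in homo. Homo replicates 1 to 3 were below all hete libraries for Cox7c, and homo replicate 4 was within their range (limma-trend adjusted p = 0.800, log2 fold change -0.23, SE 0.09). The lowest member above the filter, Cox5b-ps, is annotated as protein-coding but matches Cox5b at 99.2% identity, and was listed at 0 to 3.22 TPM.

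Several complex IV subunits exist as a common form and a form restricted to some tissues. The ubiquitous form prevailed in every pair here. Cox8b, a form of muscle and brown fat, had 68.1, 59.3, 41.0 and 86.8 TPM in hete, and 41.6, 29.5, 32.4 and 64.1 TPM in homo. Homo replicates 2 and 3 were below all hete libraries, and the fold change was the most negative of the 85 nuclear members (limma-trend adjusted p = 0.867, log2 fold change -0.61, SE 0.29). Cox8b made up 7.79% ± 2.10 of the Cox8a and Cox8b sum in hete and 5.58% ± 1.65 in homo (n = 4 each, SD). Cox8a had 825, 714, 722 and 739 TPM in hete, and 651, 723, 657 and 769 TPM in homo.

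Cox7a1, the heart and muscle form, had 61.0, 49.0, 60.5 and 88.4 TPM in hete, and 53.1, 35.9, 49.2 and 65.6 TPM in homo. Its partner Cox7a2 had 321, 279, 262 and 278 TPM in hete, and 192, 282, 243 and 304 TPM in homo. Cox7a1 therefore held 18.4% ± 4.11 of the pair in hete and 16.9% ± 4.29 in homo (n = 4 each, SD), and hete replicate 4 had the highest values of both Cox7a1 and Cox8b. Skeletal muscle markers summed to 7.49 to 11.2 TPM in hete and 9.38 to 16.2 TPM in homo, with 3 of 10 markers above the filter. Cardiac muscle markers summed to 9.70 to 12.2 TPM in hete and 7.89 to 11.5 TPM in homo, with 3 of 6 above the filter and Actc1 at 0. Of the brown adipocyte list, which contains Cox8b, 2 of 6 passed: the sum was 45.9 to 91.8 TPM in hete and 32.3 to 68.2 TPM in homo. Most of that sum is Cox8b itself. Cidea, the other marker of that list above the filter, had 5.48, 6.19, 4.89 and 5.03 TPM in hete, and 3.39, 2.57, 4.79 and 3.88 TPM in homo, without overlap (limma-trend adjusted p = 0.693, log2 fold change -0.48). Ucp1, its defining marker, averaged 0.07 TPM and Elovl3 was at 0. The part of these cell types in the Cox7a1 and Cox8b values was not tested.

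Ndufa4l2, the paralogue of Ndufa4 that responds to hypoxia and is known from pericytes, was the only member higher in homo at an unadjusted p under 0.05. It had 10.7, 9.99, 18.99 and 14 TPM in hete, and 16.5, 19.03, 17.9 and 19.4 TPM in homo. Homo values were close together, hete values were not, and hete replicate 3 lay among the homo libraries (limma-trend adjusted p = 0.760, log2 fold change 0.45, SE 0.17). Ndufa4 had 769, 654, 635 and 729.6 TPM in hete, and 524, 657, 594 and 705 TPM in homo. The share of Ndufa4l2 in the pair was 1.92% ± 0.69 in hete and 2.87% ± 0.16 in homo (n = 4 each, SD). All 10 pericyte and mural markers passed the filter, with 7 above 0 and 3 below (median log2 fold change 0.04). Their sum was 235 to 319 TPM in hete and 223 to 299.7 TPM in homo. The highest sum, in hete replicate 3, held Anpep at 86.2 TPM, against 25.5 to 35.3 TPM in the other libraries. The part of these markers in the Ndufa4l2 values was not tested.

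The other pairs differed little. Cox4i2, the form of lung and of oxygen-sensing cells, had 17.4, 15.7, 16.5 and 10.4 TPM in hete, and 10.1, 15.8, 13.2 and 14.9 TPM in homo. Cox4i1 had 822, 733, 731 and 721 TPM in hete, and 640.2, 660.0, 701 and 795 TPM in homo, so that Cox4i2 held 1.95% ± 0.36 of the pair in hete and 1.90% ± 0.32 in homo (n = 4 each, SD). Cox6b2, a testis form, had 24.98, 26.5, 20.03 and 12.7 TPM in hete, and 21.03, 23.8, 25.2 and 18.5 TPM in homo. Its partner Cox6b1 had 528, 458, 463 and 436 TPM in hete, and 376, 442, 407 and 490.4 TPM in homo. The share of Cox6b2 was 4.24% ± 1.10 in hete and 4.97% ± 0.93 in homo (n = 4 each, SD), and its log2 fold change of 0.11 became -0.10 without hete replicate 4. Sperm and testis markers summed to 0 to 1.43 TPM, with Prm2, Tnp1, Tnp2 and Odf1 at 0 throughout. Cox6a1, whose promoter is shown above, had 766, 704, 704 and 705 TPM in hete, and 582, 635, 633 and 769 TPM in homo, while its muscle partner Cox6a2 did not exceed 0.44 TPM. Cox7b had 248, 223, 205 and 225 TPM in hete, and 187, 222, 191 and 228 TPM in homo, with its testis partner Cox7b2 at 0.

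**Figure D2:**
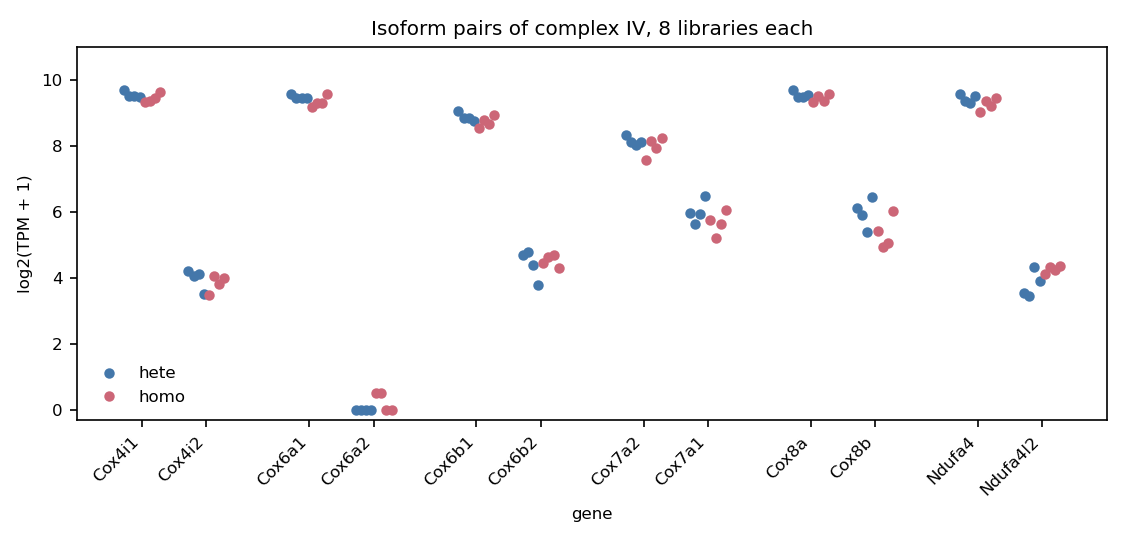
Level of common and tissue-restricted complex IV isoforms (x axis) as log2(TPM + 1) (y axis), with a point for each of the 8 libraries coloured by group. In each pair the common form is far higher; Ndufa4l2 is the pair member whose homo points gather at the top of the range, at 16.5 to 19.4 TPM.

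The 3 mitochondrial genes of complex IV encode its catalytic core. mt-Co1, which binds the haems and copper that reduce oxygen, had 12161, 12051, 11295 and 11913 TPM in hete, and 13870, 11106, 11556 and 12725 TPM in homo. mt-Co2, where cytochrome c docks, had only 121, 28.7, 99.3 and 198 TPM in hete, and 28.3, 57.4, 122 and 56.4 TPM in homo. mt-Co3 had 837, 794, 815 and 1188 TPM in hete, and 861, 945, 830 and 1109 TPM in homo. The genes differ in level by 136-fold, and the spread of mt-Co2 was wide in both groups.

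Those low values go with near-identical gene models in the nuclear genome. Copies of mitochondrial DNA inserted into a chromosome can have the same sequence as the source, and reads can then fit both places. In the GENCODE M21 annotation, chromosome 1 holds gene models that match mt-Co2, mt-Co3, mt-Atp6 and mt-Nd4l with 0 mismatches and mt-Nd3 with 1. The first bases of mt-Nd3 and of Gm28438, its copy, are printed because they hold that single difference. Positions count from 1 at the first base of mt-Nd3, the substitution is T3C, and capitals mark it.
mt-Nd3: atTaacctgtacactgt
Gm28438: atCaacctgtacactgt

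Most of the signal stood under the copy for some genes. Mean levels over the 8 libraries were 14459 TPM for the mt-Co2 copy Gm28661 against 88.8 TPM for mt-Co2, and 11597 TPM for the mt-Co3 copy Gm28437 against 922 TPM for mt-Co3. The mt-Atp6 copy, Atp6-ps, had 8218 TPM against 3351 TPM for mt-Atp6, and the mt-Nd4l copy, Gm10222, had 6455 TPM against 3667 TPM. For mt-Nd3 the division was nearer even, with 4541 TPM under Gm28438 and 5750 TPM under mt-Nd3. A partial copy of mt-Co1, Gm29216, had 459 TPM against 12084 TPM.

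With copies added, the levels evened out. mt-Co2 with its copies had 14751 ± 450.4 TPM in hete and 14345 ± 1174 TPM in homo, and mt-Co3 with its copy had 12572 ± 804 TPM in hete and 12466 ± 764 TPM in homo (n = 4 each, SD), close to the level of mt-Co1. mt-Nd3 with its copy had 10294 ± 792 TPM in hete and 10289 ± 1815 TPM in homo (n = 4 each, SD), so the lower homo value of mt-Nd3 alone was not seen in the sum. The share listed under mt-Nd3 was 59.5, 52.9, 65.9 and 64.4% across hete replicates 1 to 4, against 52.2, 48.6, 49.0 and 54.7% across homo replicates 1 to 4. All copies together made up 4.56% ± 0.31 of all TPM in hete and 4.59% ± 0.31 in homo (n = 4 each, SD). None of them is a member, so the mitochondrial sums given above leave them out.

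**Figure D3:**
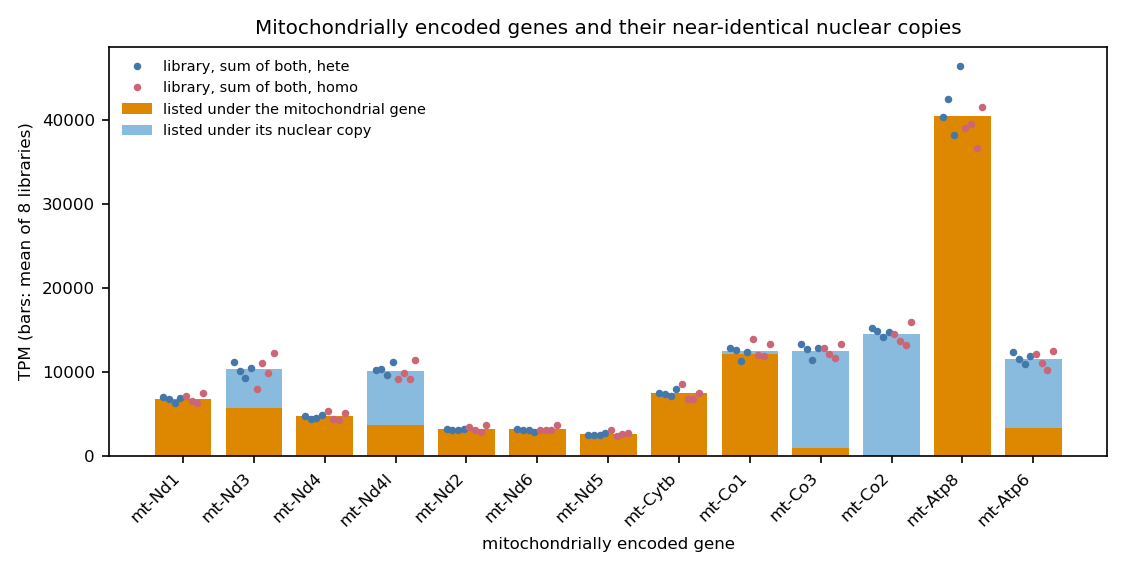
TPM (y axis) of mitochondrially encoded genes (x axis) as stacked bars of the mean over 8 libraries, divided into what is listed under the gene and under its near-identical nuclear copy, with points for the sum in each library coloured by group. For mt-Co2 nearly the whole bar belongs to the copy, and hete and homo points overlap for each gene.

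Some nuclear members have copies too. Of 89 searched, 11 had a copy of at least 95% identity above 0, against 7 of the 13 mitochondrial members. In 5 members of either genome the copies held over 10% of the sum of both. The nuclear 5 include the second Atp5po entry, itself at 0, which matches part of the protein-coding gene Donson. They also include Cox5b-ps, whose match is Cox5b. The others were Atp5mg, Ndufs5 and Ndufb4. Ndufb4 is an accessory subunit and was the lowest nuclear member of complex I above the filter. Ndufb4 had 40.6, 34.2, 35.2 and 37.5 TPM in hete, and 28.3, 37.9, 27.2 and 39.7 TPM in homo, while its processed pseudogene Ndufb4c, 100% identical over its length, averaged 400.4 TPM. The sum of Ndufb4 and Ndufb4c was 449 ± 85.2 TPM in hete and 422 ± 74.4 TPM in homo (n = 4 each, SD).

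Complex V had all 18 nuclear members below 0, with a median of -0.12. Atp5mk, a small subunit that helps ATP synthase dimers hold together, was its highest member, with 1115, 1062, 981 and 999 TPM in hete and 747, 1047, 959 and 1203 TPM in homo. Homo libraries covered a wider range than hete libraries, with replicate 1 lowest and replicate 4 highest of all 8. Its pseudogene Gm14539 was listed at 0 to 425 TPM and was above 0 in only 3 libraries.

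Atp5pf, a subunit of the peripheral stalk, had 399, 380.1, 383 and 345 TPM in hete, and 329.7, 330.5, 301 and 370.0 TPM in homo (limma-trend adjusted p = 0.810, log2 fold change -0.18, SE 0.08). Atp5me, a membrane subunit whose promoter is shown above, had 413.5, 367, 349.5 and 311 TPM in hete, and 236, 304, 320.0 and 337 TPM in homo (limma-trend adjusted p = 0.822, log2 fold change -0.27, SE 0.12). Atp5mf, another membrane subunit, had 282, 248, 247 and 252 TPM in hete, and 208, 238, 216 and 257 TPM in homo (limma-trend adjusted p = 0.855, log2 fold change -0.17, SE 0.08). In each of them 2 or 3 homo libraries lay below all hete libraries and the others within their range.

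Atp5f1b, the beta subunit that makes ATP, had 889, 1053, 993 and 1115 TPM in hete, and 1074, 906, 981 and 864 TPM in homo. Its log2 fold change was -0.08, and -0.14 to -0.03 with a library left out, with the most negative values without hete replicate 1 or homo replicate 1. Atp5f1a, the alpha subunit, had a log2 fold change of -0.04, with 508 to 561 TPM in hete and 487 to 525 TPM in homo. The c subunit of the rotor ring comes from 3 genes: Atp5mc3 averaged 587 TPM, Atp5mc1 302 TPM and Atp5mc2, the lowest member of the complex above the filter, 11.9 TPM. Atp5mc2 had 9.06, 16.4, 12.02 and 11 TPM in hete, and 6.96, 13.2, 10.5 and 15.7 TPM in homo. Atp5if1, the inhibitor that stops the enzyme from running backwards, had a log2 fold change of -0.06.

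The mitochondrial genes of the ATP synthase encode subunits a and 8 of its membrane part. mt-Atp6 had 3710, 3370, 3464 and 3535 TPM in hete, and 2861, 3328, 2871 and 3668 TPM in homo (log2 fold change -0.15, SE 0.09). mt-Atp8, the shortest member at 204 nt, had 40415, 42481, 38223 and 46380 TPM in hete, and 39072, 39510, 36677 and 41536 TPM in homo (log2 fold change -0.09, SE 0.08). It alone gave 41.4 to 45.3% of the summed mitochondrial TPM of a library.

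Both genomes were compared within each library, where the scaling of the library cancels. The log2 ratio of summed mitochondrial to summed nuclear TPM was 1.75, 1.87, 1.82 and 1.98 across hete replicates 1 to 4, against 2.10, 1.85, 1.87 and 1.90 across homo replicates 1 to 4. Hete replicate 1 was lowest and homo replicate 1 highest, and the other 6 lay between 1.82 and 1.98 in both groups mixed. The means were 1.85 ± 0.10 in hete and 1.93 ± 0.12 in homo (n = 4 each, SD), a difference of 0.08 that was below the SD of either group; without homo replicate 1 it was 0.02.

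By complex, the ratio differed between the groups by 0.08 for complex I, 0.14 for complex III, 0.19 for complex IV and 0.02 for complex V. Homo replicate 1 held the highest ratio of complexes I, III and IV, and without it the differences were 0.04 for complex I, 0.00 for complex III, 0.08 for complex IV and -0.01 for complex V. With any one library left out, the difference ran from 0.04 to 0.12 for complex I, from 0.00 to 0.21 for complex III, from 0.08 to 0.24 for complex IV and from -0.02 to 0.08 for complex V. The level of the ratio depended on the copies: for complex IV it was 0.98 ± 0.07 in hete and 1.17 ± 0.22 in homo as listed, and 2.6 ± 0.06 and 2.74 ± 0.15 with the copies added (n = 4 each, SD). With copies added it was 2.61 ± 0.07 in hete and 2.72 ± 0.09 in homo for complex I, and 2.49 ± 0.13 and 2.54 ± 0.10 for complex V (n = 4 each, SD). For complex III, whose mitochondrial gene has no such copy, it was 1.25 ± 0.12 in hete and 1.39 ± 0.29 in homo (n = 4 each, SD).

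**Figure D4:**
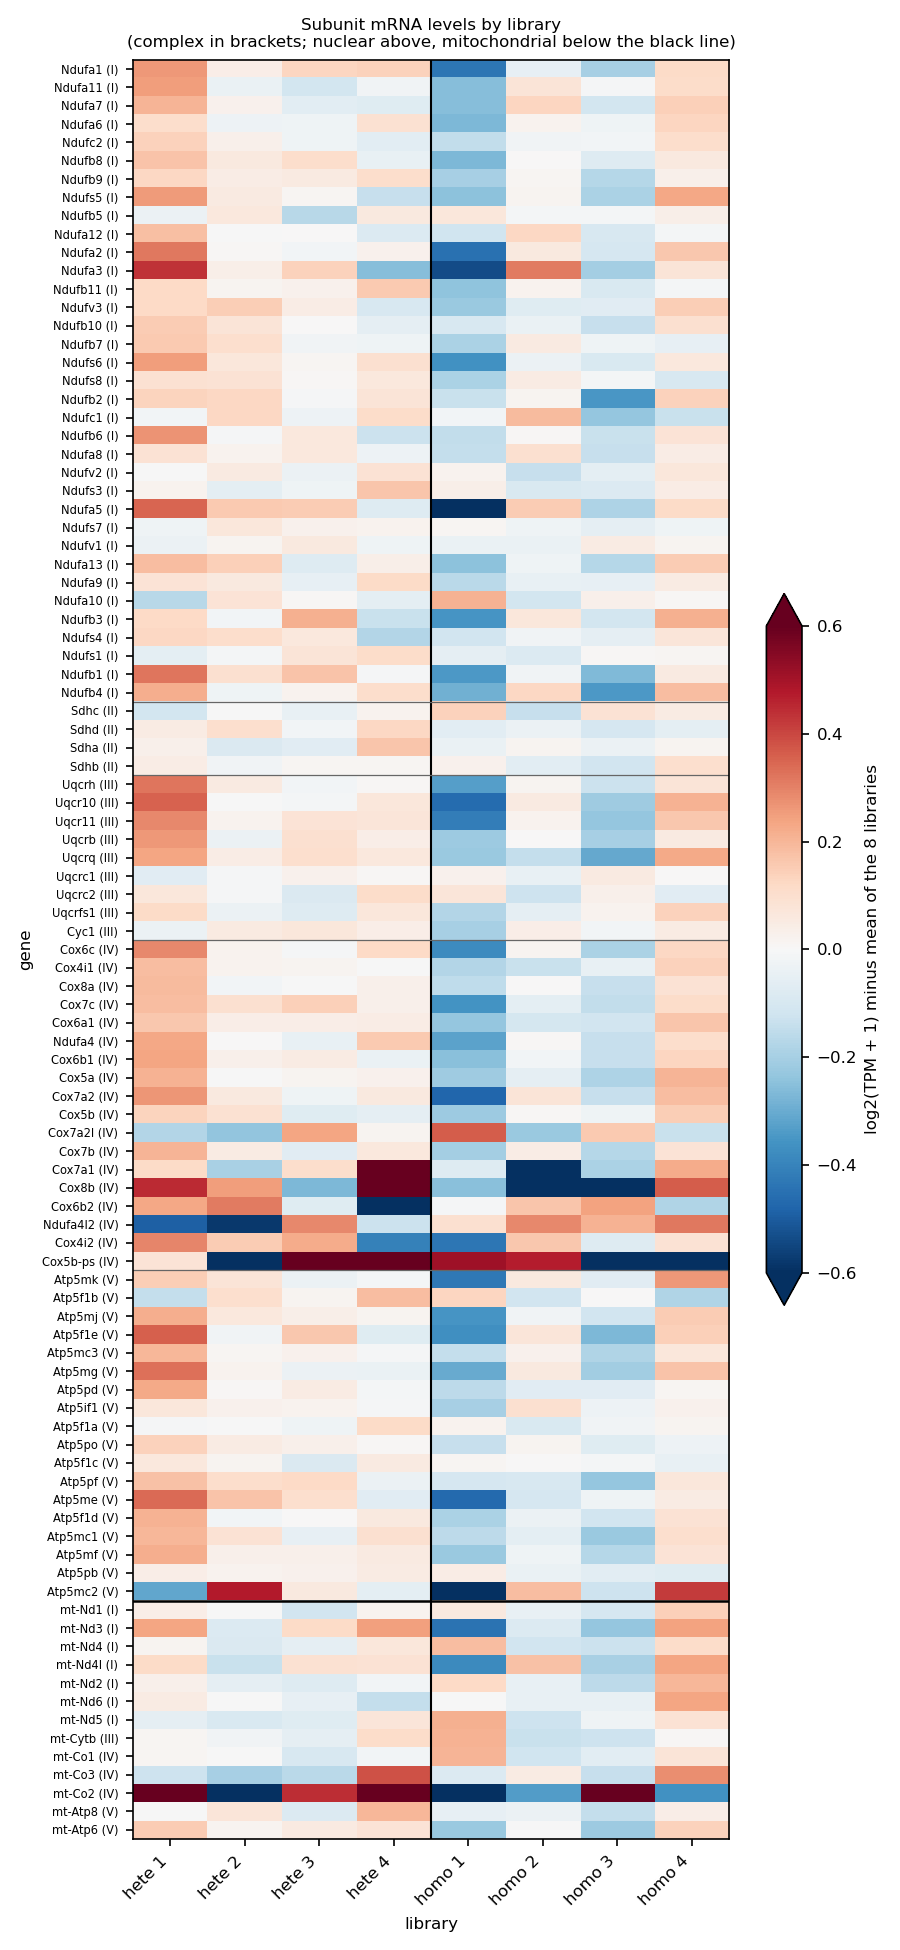
Level of the tested subunit genes, with 1 nuclear gene not drawn (rows, with the complex in brackets) in each library (columns), coloured by log2(TPM + 1) minus the mean of the 8 libraries; nuclear genes are above and mitochondrial genes below the black line. Nuclear rows are mostly high in hete replicate 1 and low in homo replicate 1, which hold the highest value of 47 and the lowest value of 53 of the 85 tested nuclear genes.

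Nuclear members varied together from library to library. Hete replicate 1 held the highest value of the 8 libraries in 47 of 85 nuclear members, where it did so for 7.22% of all genes tested and held the lowest value for 26.6%. Homo replicate 1 held the lowest value in 53 of 85, against 8.37% of all genes. The median deviation of nuclear members from the mean of all 8 libraries was 0.16, 0.03, 0.01 and 0.03 across hete replicates 1 to 4, against -0.19, 0.00, -0.10 and 0.08 across homo replicates 1 to 4. Homo replicate 1 was below every hete library in 61 nuclear members, replicate 2 in 29, replicate 3 in 54 and replicate 4 in 9. Over all genes tested, the median deviation was -0.08 in hete replicate 1 and 0.05 in homo replicate 1. For comparison, 98 genes were taken whose names begin with Rpl or Rps and a digit, or are Rplp or Rpsa names. The rule gathers cytosolic ribosomal protein genes but also other genes whose names begin that way. These 98 genes went the way of the nuclear members in these libraries, with 0.15 and -0.15, but not in all others. They had -0.16 in hete replicate 4 and 0.03 in homo replicate 3, against 0.03 and -0.10 for nuclear members. Averaged over libraries, their medians were -0.002 in hete and 0.004 in homo, beside 0.057 and -0.053 for nuclear members. Among the members, homo libraries spanned -0.19 to 0.08, and the median of homo replicate 4 was above those of 3 of the 4 hete libraries.

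Annotated transcript length was a feature the deviations went with, most of all in hete replicate 1 and homo replicate 1. It is the median over the annotated protein-coding transcripts of a gene, which need not be the length of the transcript expressed. Atp5mk, for instance, was classed at 362 nt, while its longest annotated transcript has 2733 nt. The median length of nuclear members is 651 nt, against 2221 nt for the protein-coding genes tested. Among the 34 members of up to 600 nt, the median deviation was 0.24 in hete replicate 1 and -0.26 in homo replicate 1. In the 18 members over 1000 nt, it was 0.04 and -0.04. Among 95 other nuclear protein-coding genes of at least 100 TPM and up to 600 nt, the deviations in the same libraries were 0.18 and -0.17, and over all 496 others of that length they were -0.01 and -0.02.

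Within the members, the Spearman correlation across genes of length with deviation differed by library. Over 85 nuclear members it was -0.58, -0.01, -0.22 and 0.16 across hete replicates 1 to 4. Across homo replicates 1 to 4 it was 0.55, -0.20, 0.33 and -0.37. Over the 13 mitochondrial members it was 0.80 in homo replicate 1 and between -0.57 and 0.51 in the other libraries. Genes of a library share its preparation and are no independent replicates, so these are descriptions. The log2 fold change followed length too: its median was -0.17 in nuclear members of up to 600 nt, -0.11 over 600 and up to 1000 nt and -0.05 over 1000 nt. For other genes of at least 100 TPM and up to 600 nt the median was -0.05, with 67 of 95 below 0, and over all 496 others of that length it was 0.00, with 248 below 0. After the deviations of other genes of like length and level had been removed from each library, 75 of 85 nuclear members were below 0, with a median of -0.11.

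**Figure D5:**
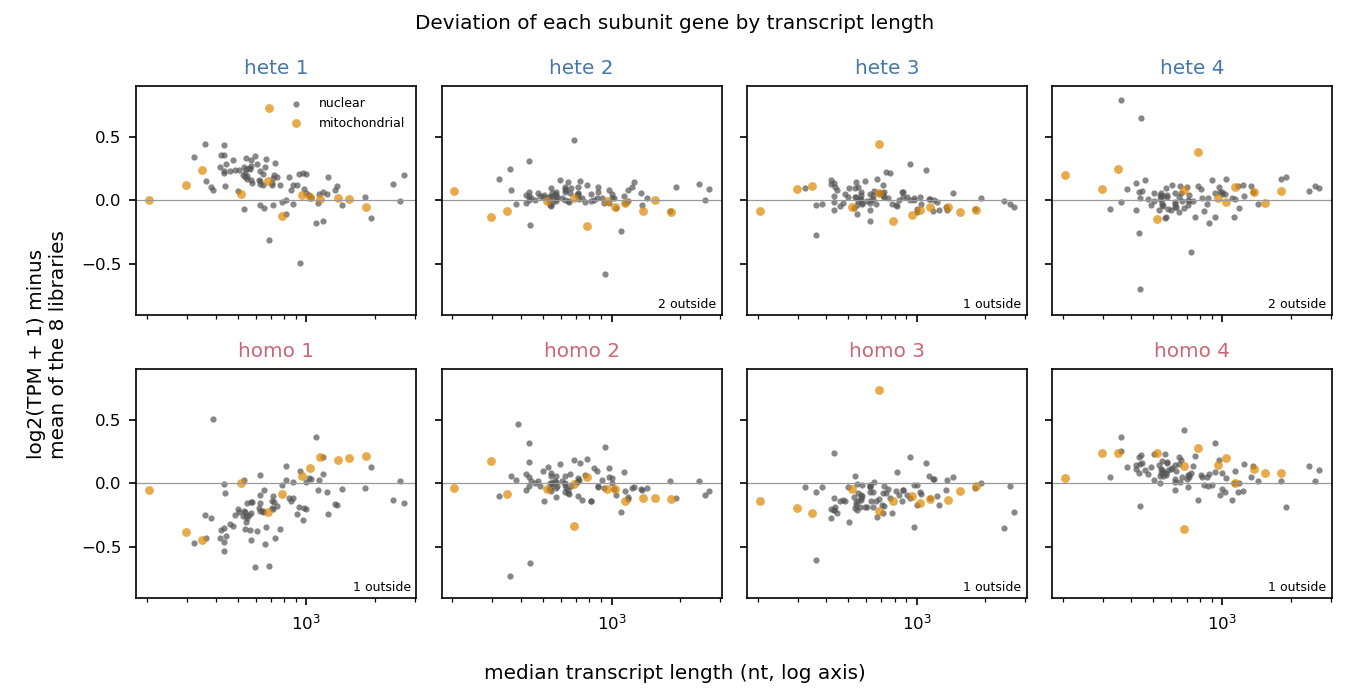
Log2(TPM + 1) minus the mean of the 8 libraries (y axis) against median annotated transcript length in nt (x axis, log scale) for each subunit gene, with a panel for each library and nuclear and mitochondrial genes in different colours. Short genes lie high in hete replicate 1 and low in homo replicate 1, with Spearman correlations over nuclear genes of -0.58 and 0.55.

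Genes that build, feed or control the complexes were followed through lists of the same pathway, and none of their genes changed (limma-trend, adjusted p under 0.05), while 6 of 206 were lower (2.91%, beside 2.49% of all genes) and 6 higher (2.91%, beside 3.56%) at an unadjusted p under 0.05. Among these 206, groups did not overlap with homo lower for Pdhb and Suclg1 alone (1.41% of all genes). With homo higher, they did not overlap for Mtpap and Pdk1 alone (2.58% of all genes). Assembly factors of complex I were below 0 in 13 of 19 (median -0.05), those of complexes II, III and V in 8 of 14 (median -0.03) and those of complex IV in 14 of 24 (median -0.04). Ndufaf1, an assembly factor of complex I on chromosome 2, where Dnajc17 lies, had 17.6 to 22.5 TPM in hete and 22.4 to 24.5 TPM in homo (limma-trend adjusted p = 0.810, log2 fold change 0.20). The members on chromosome 2 had log2 fold changes of -0.21 (Atp5f1e) to -0.02 (Atp5f1c), and an effect of position was not tested. Tmem126b, also of complex I assembly, had 21.8 to 24.3 TPM in hete and 19.1 to 21.99 TPM in homo (limma-trend adjusted p = 0.822, log2 fold change -0.17). Pet100, which assembles complex IV, had 34.2 to 51.9 TPM in hete and 28.1 to 37.6 TPM in homo (limma-trend adjusted p = 0.815, log2 fold change -0.31), and Higd1a, of the same list, had a log2 fold change of -0.21. Fmc1, an ATP synthase assembly factor, had a log2 fold change of -0.33, and Ttc19, of complex III, of 0.14.

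The genes that supply the chain with electrons and metabolites were mostly below 0 in each list, with medians of -0.05 to -0.02. Among enzymes of the tricarboxylic acid cycle, 13 of 18 were below 0 (median -0.04). Pdhb, of pyruvate dehydrogenase, had 154, 153, 159 and 162 TPM in hete, and 142, 142, 138 and 153 TPM in homo; its groups did not overlap (limma-trend adjusted p = 0.810, log2 fold change -0.13). Suclg1, of succinyl-CoA ligase, had 105, 107, 114 and 109.8 TPM in hete, and 104, 96.9, 104 and 104 TPM in homo, again without overlap (log2 fold change -0.09). Electron carriers and enzymes of coenzyme Q synthesis were below 0 in 11 of 16 (median -0.05), with Coq9 at -0.14 and Coq8b at 0.14. That list also holds the complex I subunit Ndufab1, at -0.25. Glycolytic genes were below 0 in 10 of 17 (median -0.02), with Ldha, lactate dehydrogenase A, at 0.16 and Hk2, a hexokinase, at -0.31. Carriers of the inner and outer membranes were below 0 in 5 of 8 (median -0.02), with Slc25a4, the ATP and ADP exchanger, at -0.12 and Ucp3 at -0.28.

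Lists for mitochondrial gene expression and its regulators had medians at or just above 0. Genes for mitochondrial transcription, RNA processing and DNA maintenance were below 0 in 10 of 27 (median 0.03). Mtpap, the mitochondrial poly(A) polymerase, had 16.8, 16.5, 18 and 19.3 TPM in hete, and 20.9, 19.8, 20.9 and 19.4 TPM in homo, without overlap (limma-trend adjusted p = 0.760, log2 fold change 0.19), and Mterf4, which acts in mitochondrial ribosome assembly, had a log2 fold change of 0.21. Mitochondrial ribosomal proteins divided evenly, with 19 of 38 below 0 (median 0.01), among them Mrpl15 at 0.28 and Mrps16 at -0.20. Regulators of mitochondrial biogenesis were below 0 in 6 of 12 (median 0.02). Nrf1, whose motif is marked in the promoters above, had 16.4, 19.4, 19.5 and 17.4 TPM in hete, and 23.2, 18.8, 20.9 and 20.3 TPM in homo (limma-trend adjusted p = 0.854, log2 fold change 0.19), and Pprc1, a coactivator, had a log2 fold change of -0.26.

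Of the hypoxia response list, 4 of 14 were below 0 (median 0.05), against 43.7% of all genes tested. Pdk1, the kinase that restrains pyruvate dehydrogenase and lies on chromosome 2, had 40.2, 40.1, 42.2 and 42.5 TPM in hete, and 49.9, 44.98, 52.8 and 45.9 TPM in homo. All 4 homo values were above all 4 hete values (limma-trend adjusted p = 0.680, log2 fold change 0.22, SE 0.07). Car9, a carbonic anhydrase of the same list, had 4.38, 5.19, 7.92 and 3.02 TPM in hete, and 5.37, 8.15, 8.33 and 6.93 TPM in homo (limma-trend adjusted p = 0.863, log2 fold change 0.46). Higd1a, which is in this list as well as in that of complex IV assembly, went the other way (limma-trend adjusted p = 0.870, log2 fold change -0.21).

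In the authors' deposited table of gene ontology terms, 3 of 387 terms name mitochondria or cytochrome c, all with an adjusted p of 1, and 0 terms hold a member.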

How the data were processed

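RNA of the basilar membrane was sequenced from stranded mRNA libraries made of 1 µg total RNA, per the labels' protocols. The authors deposited TPM for each gene and library; fastp, HISAT2, StringTie, RSEM, DESeq2 and GRCm39 are named per the submitters' processing notes, without versions or roles. TPM keeps no depth and a value of 0 can be a failed estimate. A deposited ontology table gives the authors' p-values per term. Groups were taken from the sample titles.

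Genes averaging 1 TPM or more were fitted on log2(TPM + 1) by limma-trend (limma 3.58.1 in R 4.3.3, robust option, genotype as the only term, all 8 libraries, Benjamini-Hochberg adjustment over 17811 genes, threshold 0.05). Fold changes are homo over hete and understate changes of low genes. Sums, ratios and shares were given without a test.

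Transcript lengths (the median over protein-coding transcripts of a gene), chromosomes and transcripts came from GENCODE M21, on an earlier build than the authors', so no coordinates were taken from it. Copies were found with blastn 2.17.0 (at least 95% identity over 50% of the member or 80% of the copy, E-value limit 1e-20). Promoters came from RefSeq, and the NRF1 letters were shortened to an 8-letter core after a longer form had been searched. Values were handled with Python 3.11.15 and pandas 2.3.3, and figures drawn with matplotlib 3.10.9.

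Genes named with values are the mitochondrial members, the isoform pairs, and in each complex the highest, the lowest and the 3 of smallest p among nuclear members; outside the members, the 2 of smallest p per pathway list. Others named (among them Ndufs1, Atp5f1a, Atp5f1b, Cox6a1, Uqcrc1, Uqcrc2 and Uqcrfs1) were chosen after their values were seen, and 1 result is not reported here. The members, lists and marker lists were chosen with earlier results of these data known. Alternatives were a pseudocount of 0.1, no filter, a filter of 5 TPM in 4 libraries, quantile normalization, rescaling over nuclear protein-coding genes, the replicate number as a block, eBayes without the robust option, the ratio without mt-Atp8 or from mean log values, and each library left out.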

Additional observations from a re-analysis of the deposited data

Results flagged for a closer look

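Chance alone sets about 1 in 20 groups of 4 apart in this way; 220 groups (98 members and 12 sums or ratios, in hete and in homo) were looked at and 13 stood out, 10 of them through hete replicate 1. Hete replicate 1 lay far above the other hete libraries for Ndufa2 (255.75 TPM, the others 202.78 to 209.11), Cox4i1 (822.48 TPM, the others 721.25 to 732.94), Cox6a1 (766.3 TPM, the others 703.83 to 705.18) and Cox5a (321.1 TPM, the others 277.16 to 282.95). In complex V it did so for Atp5mc3 (671.76 TPM, the others 582.73 to 594.74), Atp5mg (720.02 TPM, the others 556.45 to 580.72) and Atp5mf (282.26 TPM, the others 247.32 to 251.99). The same library was far above the others in the summed nuclear TPM of complex III (3532.62, the others 2998.23 to 3072.93), of complex V (10154.8, the others 9234.95 to 9379.45) and of all nuclear members (28588.6, the others 25691.9 to 25928.7).

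Among mitochondrial genes, mt-Nd4l was far below the other hete libraries in hete replicate 2 (3312.89 TPM, the others 3859.5 to 3939.95), mt-Co3 far above them in hete replicate 4 (1188.12 TPM, the others 794.39 to 836.56), and mt-Nd6 far above the other homo libraries in homo replicate 4 (3694.79 TPM, the others 3041.51 to 3138.08).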

How the results depend on the processing

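No member changed under any of 16 alternatives. The median log2 fold change of nuclear members stayed below 0 in all of them, from -0.17 to -0.07 with a library left out and at -0.11 otherwise, and 67 to 77 of 85 were lower. The mitochondrial median lay between -0.03 and 0.07 with a library left out and between 0 and 0.03 otherwise, with 5 to 9 of 13 lower. The 0 came from quantile normalization, which gives genes of the same rank in each library the same value. Removing the length and level of other genes was done for nuclear genes alone, so it could not move the mitochondrial median. The number of members at an unadjusted p under 0.05 ran from 0 to 27 with a library left out. The difference of the log2 ratio of both genomes was 0.02 to 0.12 with a library left out, 0.11 without mt-Atp8, 0.05 from mean log values and 0.10 with nuclear copies added. That last setting and the removal of other genes' length and level (14 members at an unadjusted p under 0.05) were chosen after seeing the data. Same-numbered libraries of hete and homo correlated at -0.08, -0.03, 0.05 and 0.01 in their deviations, so the numbers pair nothing by this check. Only hete replicate 3 correlated best with its own number. With the replicate block 0 members changed and 4 had an unadjusted p under 0.05. Among 272 recomputed values of 17 single genes, 270 stayed within 1 SE. TPM gives no depth, so precision was read from the spread between libraries alone.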
